A study of Mus musculus with 8 samples.

Results

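Collagens are secreted matrix proteins built from alpha chains that wind into a helix of several chains, each chain encoded by its own gene. Fibrillar collagens form the tension-bearing fibres of skin, bone, tendon and cartilage, type IV collagen forms the sheet of basement membranes, type VI collagen forms beaded filaments around cells, and the remaining types decorate fibrils, span membranes or build short-chain networks. Fibroblasts are the main producers of type I, III, V and VI collagen in connective tissue. The genes described here are the 44 symbols of the count table named as a collagen alpha chain (Col, a type number, a, a chain number), out of 23366 symbols. By type they were divided into 11 fibrillar chains (types I, II, III, V, XI, XXIV and XXVII), 8 basement membrane chains (types IV, XV and XVIII), 6 type VI chains and 19 other chains.

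RNA was sequenced from mouse embryonic fibroblasts, primary connective tissue cells grown out of embryos and used at passages 3 to 5 on a C57BL/6 background. The 8 libraries formed 4 groups of 2: cells labelled as knockouts of the histone H3K9 demethylase gene Kdm3a and starved of glucose for 12 h, starved wild-type (WT) cells, KO-labelled cells at 0 h (fed), and fed WT cells. Fed cells were in DMEM with 10% serum and starved cells in glucose-free DMEM with 10% dialyzed serum, so glucose loss, the switch of serum and the elapsed 12 h cannot be told apart. The labels do not say how many embryos or cultures lie behind a group, so p-values measure the spread between these libraries, which may be technical.

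The libraries held 38407520 to 53602289 counts with 1 row per gene, and 35 of the 44 collagen genes passed the filter on low counts. The design compared starved with fed cells in each genotype, KO-labelled with WT cells in each condition, and the responses to starvation between the genotypes. Kdm3a was at 55.2 and 55.4 CPM (counts for each 1000000 counts of the library, scaled by TMM) in fed KO-labelled libraries, against 56.1 and 56.4 CPM in fed WT libraries, a log2 difference of -0.02 ± 0.043 (SE; adjusted p = 0.619), so counts over the whole transcript do not show the loss the label names. Starved, it was at 65.4 and 66.7 CPM in KO-labelled and 176 and 185 CPM in WT libraries (log2 fold change -1.45 ± 0.041). Xist, the RNA that coats the silenced X, was read at 869 to 1370 CPM in KO-labelled and 0.939 to 1.54 CPM in WT libraries, so genotype and sex of the cells cannot be told apart. Of the fibroblast markers Vim, Pdgfrb and Twist1 were read at 22.4 CPM or more in every library, whereas Fap stayed between 0 and 0.51 CPM, and Lum between 0 and 2.92 CPM. Thy1 was at 4.72 to 6.62 CPM in KO-labelled and 99.3 to 166 CPM in WT libraries and Postn at 6.44 to 11.7 CPM in KO-labelled and 426 to 811 CPM in WT libraries, whereas Dcn was at 38.3 to 52.2 CPM in KO-labelled and 1.66 to 2.57 CPM in WT libraries, and Pdgfra was higher in KO-labelled libraries in each condition. All 10 listed fibroblast markers summed to 4603 to 4605 CPM in starved KO-labelled, 12827 to 12859 CPM in starved WT, 4707 to 4717 CPM in fed KO-labelled and 6030 to 6059 CPM in fed WT libraries. Vim made up most of this sum in every library (11395 and 11322 CPM in starved WT, 4399 and 4394 CPM in fed WT). In WT cells Thy1 and Postn were also higher starved than fed, whereas Pdgfra, Pdgfrb, S100a4 and Twist1 were lower. Macrophage and blood markers summed to 53.2 and 54.2 CPM in starved KO-labelled and 7 to 10.2 CPM in starved WT libraries, against 21.5 to 22.1 CPM in fed KO-labelled and 19 to 19.4 CPM in fed WT libraries, and Ptprc, the marker of blood cells, was at 0 in all of them. Endothelial markers summed to 5.41 to 5.5 CPM in starved KO-labelled, 52.9 to 54.9 CPM in starved WT, 2.76 to 4.15 CPM in fed KO-labelled and 2.29 to 2.51 CPM in fed WT libraries, and Tie1 and Emcn were at 0 in all. Adipocyte markers summed to 34.5 to 34.7 CPM in starved KO-labelled, 8 to 10.8 CPM in starved WT, 62.6 to 63.5 CPM in fed KO-labelled and 12.4 to 12.8 CPM in fed WT libraries, with Plin1 at 0. Kdr made up most of the endothelial sum in starved WT libraries (54.8 and 52.8 CPM). Pecam1, Cdh5 and Tek were each at no more than 0.121 CPM there. Cd68 made up most of the macrophage and blood sum in starved KO-labelled libraries (40.9 and 40.7 CPM). Fabp4 made up most of the adipocyte sum in every library (6 to 60.3 CPM). The part of these cell types in the results was not tested. As in any bulk sample, fewer cells of a type and less RNA per cell cannot be told apart.

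The promoter set used here held no sequence for Col1a1 or Col2a1. Stretches upstream of 4 other collagen genes are shown because these genes carry some of the largest differences below: Col1a2 and Col11a1 fell with starvation and were lower in KO-labelled cells, Col3a1 fell furthest in WT cells, and Col10a1 was far higher in KO-labelled cells. Each runs 5′ to 3′ on the strand of the gene from 250 bases before to 30 bases after the annotated start, from RefSeq on GRCm38.p6. Capitals mark the letters CCAAT (a box bound by NF-Y and known in type I collagen promoters) and TATAAA (the TATA box), or their reverse complements.
Col1a2, chr6:4505368-4505647, plus strand: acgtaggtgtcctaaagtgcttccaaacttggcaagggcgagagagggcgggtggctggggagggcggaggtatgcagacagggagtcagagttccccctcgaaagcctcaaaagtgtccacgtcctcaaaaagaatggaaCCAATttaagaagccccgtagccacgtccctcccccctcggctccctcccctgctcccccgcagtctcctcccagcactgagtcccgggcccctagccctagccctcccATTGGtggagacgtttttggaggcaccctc
Col11a1, chr3:114030290-114030569, plus strand: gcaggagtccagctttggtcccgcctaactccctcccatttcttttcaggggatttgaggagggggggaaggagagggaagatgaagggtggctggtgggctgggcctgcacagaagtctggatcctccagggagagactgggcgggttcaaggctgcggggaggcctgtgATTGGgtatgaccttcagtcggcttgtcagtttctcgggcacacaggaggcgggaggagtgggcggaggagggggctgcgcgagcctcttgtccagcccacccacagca
Col3a1, chr1:45311288-45311567, plus strand: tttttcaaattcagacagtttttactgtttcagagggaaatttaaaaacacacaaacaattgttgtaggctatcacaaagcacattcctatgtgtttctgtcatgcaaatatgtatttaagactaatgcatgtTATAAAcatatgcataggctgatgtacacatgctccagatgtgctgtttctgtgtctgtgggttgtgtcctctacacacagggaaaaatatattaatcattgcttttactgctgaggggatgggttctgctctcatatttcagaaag
Col10a1, chr10:34389731-34390010, plus strand: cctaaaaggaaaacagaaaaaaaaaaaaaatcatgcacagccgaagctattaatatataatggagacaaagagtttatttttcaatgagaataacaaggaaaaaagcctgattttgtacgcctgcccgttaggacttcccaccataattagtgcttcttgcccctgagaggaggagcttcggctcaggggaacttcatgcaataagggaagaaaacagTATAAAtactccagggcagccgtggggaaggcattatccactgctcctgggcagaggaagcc

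The Col10a1 window holds TATAAA 32 to 27 bases before the start, and the Col3a1 window holds it 117 to 112 bases before. Col1a2 holds CCAAT 109 to 105 bases before its start and, on the opposite strand, at bases 1 to 5 after it, and Col11a1 holds it on the opposite strand 79 to 75 bases before. The windows of Col1a2 and Col11a1 have 61.1 and 62.9% G and C, those of Col3a1 and Col10a1 36.1 and 43.2%. Searched on both strands over windows of the same length, CCAAT was in 12 of the 35 collagen promoters in the RefSeq table and in 36.6% of all 27025. TATAAA was in 5 collagen promoters (13.7% of all), GGGCGG (the GC box) in 22 (34.9%), and CCACG (the downstream end of the ER stress element) in 14 (31%). TGATGNAA, the core of the element read by ATF4, was in 0 collagen windows and in 3.89% of all. A match is a description of letters, not a site, and CCAAT and CCACG can lie in one element.

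Collagen transcripts took a smaller part of the libraries after starvation in both genotypes. They held 0.628 and 0.631% of counts in starved KO-labelled, 0.292 and 0.312% in starved WT, 1.1 and 1.08% in fed KO-labelled and 1.81 and 1.76% in fed WT libraries. Groups did not overlap; 2 against 2 libraries cannot give an exact two-sided permutation p under 0.33, so these sums were not tested. The fibrillar chains held 0.311 and 0.313% in starved KO-labelled, 0.135 and 0.143% in starved WT, 0.674 and 0.664% in fed KO-labelled and 1.47 and 1.43% in fed WT libraries. Type VI chains held 0.0443 ± 4.3e-05% in starved KO-labelled and 0.0415 ± 0.0012% in starved WT libraries, against 0.112 ± 0.0014% in fed KO-labelled and 0.193 ± 0.0043% in fed WT libraries (SD, n = 2 each). Basement membrane chains went the other way in KO-labelled cells, with 0.145 ± 0.00073% starved and 0.127 ± 0.0032% fed. In WT cells they held 0.0566 ± 0.0024% starved and 0.0689 ± 0.0018% fed, a direction that turns with TMM scaling, where they summed to 715 ± 33 CPM starved and 634 ± 18 CPM fed. The other chains held 0.128% starved and 0.184% fed in KO-labelled cells. In WT cells they held 0.0646% starved and 0.072% fed, which likewise turns with TMM scaling (815 ± 55 CPM starved, 663 ± 15 CPM fed).

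**Figure D1:**
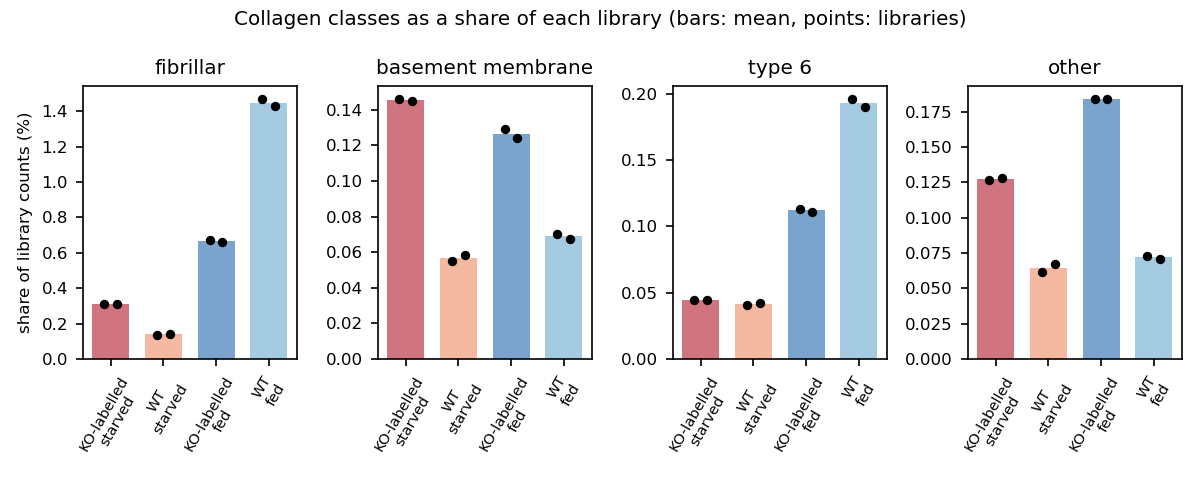
Share of each library's counts (vertical axes, percent, each from 0) held by the 4 collagen classes in the 4 groups; bars are means and points the 2 libraries. Fibrillar and type VI shares are lower in starved than in fed cells of both genotypes, and basement membrane shares are highest in KO-labelled cells.

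The make-up of the collagen pool differed between the genotypes and shifted with starvation. Per transcript length, Col5a2, a chain of the fibril-nucleating type V collagen, led in starved KO-labelled cells with 22 ± 0.17% of collagen transcripts, followed by Col10a1, the short-chain collagen of hypertrophic cartilage, with 19.6 ± 0.072%. In starved WT cells the leading chains lay close together: Col1a2 made up 11.8 ± 0.098%, Col5a2 11.4 ± 0.074%, Col4a1 10.7 ± 0.13%, Col6a1 10.4 ± 0.21%, Col5a1 10.1 ± 0.15% and Col12a1 9.75 ± 0.3%, and some neighbours in that order (Col4a1 and Col6a1, Col6a1 and Col5a1, Col5a1 and Col12a1) did not differ beyond their spread. In fed KO-labelled cells Col5a2 made up 19.3 ± 0.046%, Col1a1 18.1 ± 0.059% and Col10a1 12.4 ± 0.14%. In fed WT cells the chains of type I collagen, Col1a2 (39.6 ± 0.12%) and Col1a1 (27.2 ± 0.093%), made up most of the pool (SD, n = 2). These are shares of CPM divided by the length of the GENCODE M21 transcript, which was matched by accession for 43 chains and by symbol for Col12a1.

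**Figure D2:**
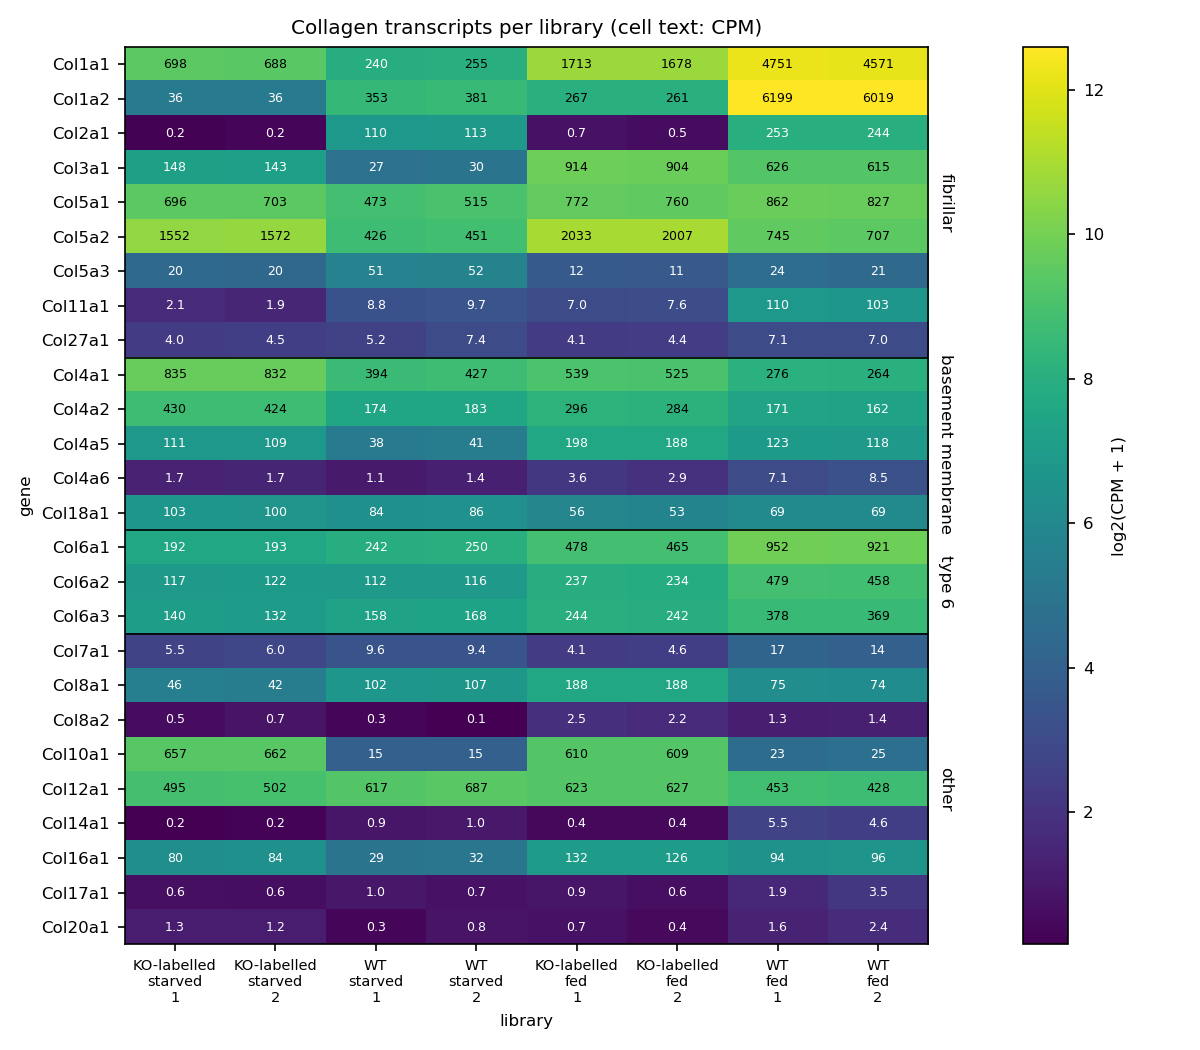
Levels of the 26 collagen genes with a mean of at least 1 CPM (rows, by class) in the 8 libraries (columns); colour is log2(CPM + 1) and the cell text is CPM. Col1a1 and Col1a2 stand out in fed WT libraries, Col10a1 in all KO-labelled libraries, and Col2a1 is near 0 in KO-labelled libraries.

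Starvation was compared with feeding to ask how glucose withdrawal, with its change of medium, changed expression in each genotype. In KO-labelled cells 18 of the 35 tested collagens fell and 8 rose, where 40.3% of all 14418 genes fell and 39.4% rose. In WT cells 22 fell and 7 rose, where 44.8% of all genes fell and 36.7% rose. The median log2 fold change over the tested collagens was -0.66 in KO-labelled cells (all genes -0.02) and -1.44 in WT cells (all genes -0.17). Of 11 fibrillar chains 8 fell in KO-labelled and 9 in WT cells, with 1 riser in each (median -1.29 and -2.43). Of the 4 tested type VI chains 4 fell in KO-labelled and 3 in WT cells, with 0 risers. Of the 7 tested basement membrane chains 4 rose and 2 fell in KO-labelled cells and 3 rose and 2 fell in WT cells, and of 13 other chains 3 rose and 4 fell in KO-labelled and 3 rose and 8 fell in WT cells. Scaled by library totals, the median of all genes shifts by -0.25 in KO-labelled and -0.46 in WT cells, and risers number 5 and 4, so changes are relative to TMM scaling.

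Type I collagen, the main fibre protein, is made of the chains of Col1a1 and Col1a2. Col1a1 stood at 698 and 688 CPM in starved KO-labelled, 240 and 255 CPM in starved WT, 1713 and 1678 CPM in fed KO-labelled, and 4751 and 4571 CPM in fed WT libraries. With starvation it fell by 1.29 ± 0.028 on the log2 scale in KO-labelled cells (adjusted p = 3.77e-20) and by 4.24 ± 0.032 in WT cells (adjusted p = 1.24e-27). The starved WT libraries were the lowest and the fed WT libraries the highest, and no groups overlapped. Col1a2 stood at 36.2 and 36.4 CPM in starved KO-labelled, 353 and 381 CPM in starved WT, 267 and 261 CPM in fed KO-labelled, and 6199 and 6019 CPM in fed WT libraries. It fell 7.28-fold in KO-labelled cells (log2 -2.86 ± 0.035) and 16.7-fold in WT cells (log2 -4.06 ± 0.033). For this chain the starved KO-labelled libraries were the lowest, a different order from its partner.

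Col3a1, the chain of type III collagen of soft tissues, stood at 148 and 143 CPM in starved KO-labelled, 27 and 29.8 CPM in starved WT, 914 and 904 CPM in fed KO-labelled, and 626 and 615 CPM in fed WT libraries. It fell 6.25-fold in KO-labelled cells (adjusted p = 5.89e-24) and 21.9-fold in WT cells (adjusted p = 2.13e-26). Col5a2, its neighbour on chromosome 1, is a chain of type V collagen, which sets the diameter of type I fibrils. It stood at 1552 and 1572 CPM in starved KO-labelled, 426 and 451 CPM in starved WT, 2033 and 2007 CPM in fed KO-labelled, and 745 and 707 CPM in fed WT libraries. The fall of Col5a2 was shallow beside that of Col3a1, 0.37 ± 0.029 on the log2 scale in KO-labelled and 0.73 ± 0.03 in WT cells. The ratio of Col3a1 to Col5a2 counts was accordingly 0.0954 and 0.0909 in starved KO-labelled, 0.0632 and 0.0661 in starved WT, 0.449 and 0.451 in fed KO-labelled and 0.841 and 0.871 in fed WT libraries, a pair chosen after its values were seen.

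Col5a1, the partner chain in type V collagen, stood at 696 and 703 CPM in starved KO-labelled, 473 and 515 CPM in starved WT, 772 and 760 CPM in fed KO-labelled, and 862 and 827 CPM in fed WT libraries. It fell by 0.13 ± 0.033 on the log2 scale in KO-labelled cells (adjusted p = 0.00106) and by 0.78 ± 0.033 in WT cells (adjusted p = 3.7e-15). Col5a3, a further type V chain, was the fibrillar gene that rose in both genotypes: it reached 20.1 ± 0.42 CPM in starved and 11.5 ± 0.28 CPM in fed KO-labelled cells, and 51.6 ± 1.1 CPM in starved and 22.3 ± 1.9 CPM in fed WT cells (log2 fold changes 0.8 ± 0.075 and 1.21 ± 0.069). The minor fibrillar chain Col11a1, which joins type II or type V collagen in fibrils, stood at 2.11 and 1.87 CPM in starved KO-labelled, 8.81 and 9.72 CPM in starved WT, 7.02 and 7.61 CPM in fed KO-labelled, and 110 and 103 CPM in fed WT libraries. Its log2 fold change with starvation was -1.88 ± 0.11 in KO-labelled and -3.53 ± 0.074 in WT cells. Col27a1, a fibrillar chain of cartilage, was between 4.03 and 7.39 CPM in every library and differed by 0.02 ± 0.16 in KO-labelled (adjusted p = 0.911) and -0.17 ± 0.16 in WT cells (adjusted p = 0.326; with library totals WT cells pass at -0.63).

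The most abundant type IV chains of basement membranes, Col4a1 and Col4a2, did not follow the fall of most fibrillar chains. Col4a1 stood at 835 and 832 CPM in starved KO-labelled, 394 and 427 CPM in starved WT, 539 and 525 CPM in fed KO-labelled, and 276 and 264 CPM in fed WT libraries. It rose by 0.65 ± 0.034 in KO-labelled cells and by 0.6 ± 0.035 in WT cells on the log2 scale. Col4a2, which lies head to head with Col4a1 on chromosome 8 and forms the common type IV molecule with it, stood at 430 and 424 CPM in starved KO-labelled, 174 and 183 CPM in starved WT, 296 and 284 CPM in fed KO-labelled, and 171 and 162 CPM in fed WT libraries. In KO-labelled cells it rose by 0.56 ± 0.034, and in WT cells by 0.1 ± 0.036 (adjusted p = 0.0133), a call that ends without fed WT replicate 2 (0.06, adjusted p = 0.178) and turns to -0.35 with library totals. So Col4a1 was higher in starved than in fed cells of both genotypes with no overlap, while Col4a2 in WT cells lay close to its fed level.

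The X-linked pair Col4a5 and Col4a6, chains of the type IV networks of kidney and smooth muscle, fell. Col4a5 stood at 111 and 109 CPM in starved KO-labelled, 38.4 and 40.7 CPM in starved WT, 198 and 188 CPM in fed KO-labelled, and 123 and 118 CPM in fed WT libraries (log2 fold changes -0.82 ± 0.04 in KO-labelled and -1.61 ± 0.046 in WT cells). Col4a6 fell by 0.93 ± 0.2 in KO-labelled cells, where it averaged 1.7 ± 0.027 CPM starved and 3.22 ± 0.48 CPM fed, and by 2.67 ± 0.21 in WT cells, where it averaged 1.22 ± 0.21 CPM starved and 7.8 ± 1 CPM fed. Col18a1, the basement membrane chain that carries endostatin, stood at 103 and 99.8 CPM in starved KO-labelled, 83.7 and 86.1 CPM in starved WT, 55.6 and 53.4 CPM in fed KO-labelled, and 68.9 and 69.1 CPM in fed WT libraries. It rose by 0.89 ± 0.041 in KO-labelled and by 0.3 ± 0.043 in WT cells, the WT value turning to -0.16 with library totals. Col4a3 and Col4a4, the head-to-head pair of the glomerular network, held no more than 56 counts in any library.

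The main type VI chains, Col6a1, Col6a2 and Col6a3, which assemble in one molecule, fell in both genotypes. Col6a1 stood at 192 and 193 CPM in starved KO-labelled, 242 and 250 CPM in starved WT, 478 and 465 CPM in fed KO-labelled, and 952 and 921 CPM in fed WT libraries. The fall was 1.29 ± 0.03 in KO-labelled and 1.93 ± 0.03 in WT cells on the log2 scale. Col6a2, next to it on chromosome 10, stood at 117 and 122 CPM in starved KO-labelled, 112 and 116 CPM in starved WT, 237 and 234 CPM in fed KO-labelled, and 479 and 458 CPM in fed WT libraries, a fall of 0.98 ± 0.034 in KO-labelled and 2.04 ± 0.036 in WT cells. Col6a3, on chromosome 1, stood at 140 and 132 CPM in starved KO-labelled, 158 and 168 CPM in starved WT, 244 and 242 CPM in fed KO-labelled, and 378 and 369 CPM in fed WT libraries, a fall of 0.84 ± 0.036 in KO-labelled and 1.2 ± 0.037 in WT cells. Fed levels of all these chains were lower in KO-labelled than in WT cells, and the starved levels of Col6a2 lay close together in both genotypes.

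Among the other types, Col8a1 and Col12a1 fell with starvation in KO-labelled cells and rose in WT cells. Col7a1, Col10a1 and Col20a1 were called the other way, higher in KO-labelled and lower in WT starvation. For Col7a1 the log2 fold changes were 0.41 ± 0.13 in KO-labelled and -0.72 ± 0.11 in WT cells. The KO-labelled call of Col7a1 ended with library totals (0.15, adjusted p = 0.283). It also ended without fed KO-labelled replicate 1 (0.32) or starved KO-labelled replicate 2 (0.34). The KO-labelled calls of Col10a1 and Col20a1, described below, also did not hold under every alternative. Col8a1, a short-chain collagen of vessel walls and Descemet's membrane, stood at 46 and 42.4 CPM in starved KO-labelled, 102 and 107 CPM in starved WT, 188 and 188 CPM in fed KO-labelled, and 75 and 73.5 CPM in fed WT libraries. It fell by 2.09 ± 0.043 on the log2 scale in KO-labelled cells and rose by 0.5 ± 0.043 in WT cells, where the call ends with library totals (0.04, adjusted p = 0.368). Col12a1, which lies on the surface of type I fibrils, stood at 495 and 502 CPM in starved KO-labelled, 617 and 687 CPM in starved WT, 623 and 627 CPM in fed KO-labelled, and 453 and 428 CPM in fed WT libraries. It fell by 0.33 ± 0.038 in KO-labelled cells and rose by 0.57 ± 0.038 in WT cells. Col16a1, another fibril-associated chain, stood at 80.1 and 83.9 CPM in starved KO-labelled, 29.4 and 32 CPM in starved WT, 132 and 126 CPM in fed KO-labelled, and 93.8 and 96.5 CPM in fed WT libraries, and fell by 0.66 ± 0.043 in KO-labelled and 1.63 ± 0.051 in WT cells.

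**Figure D3:**
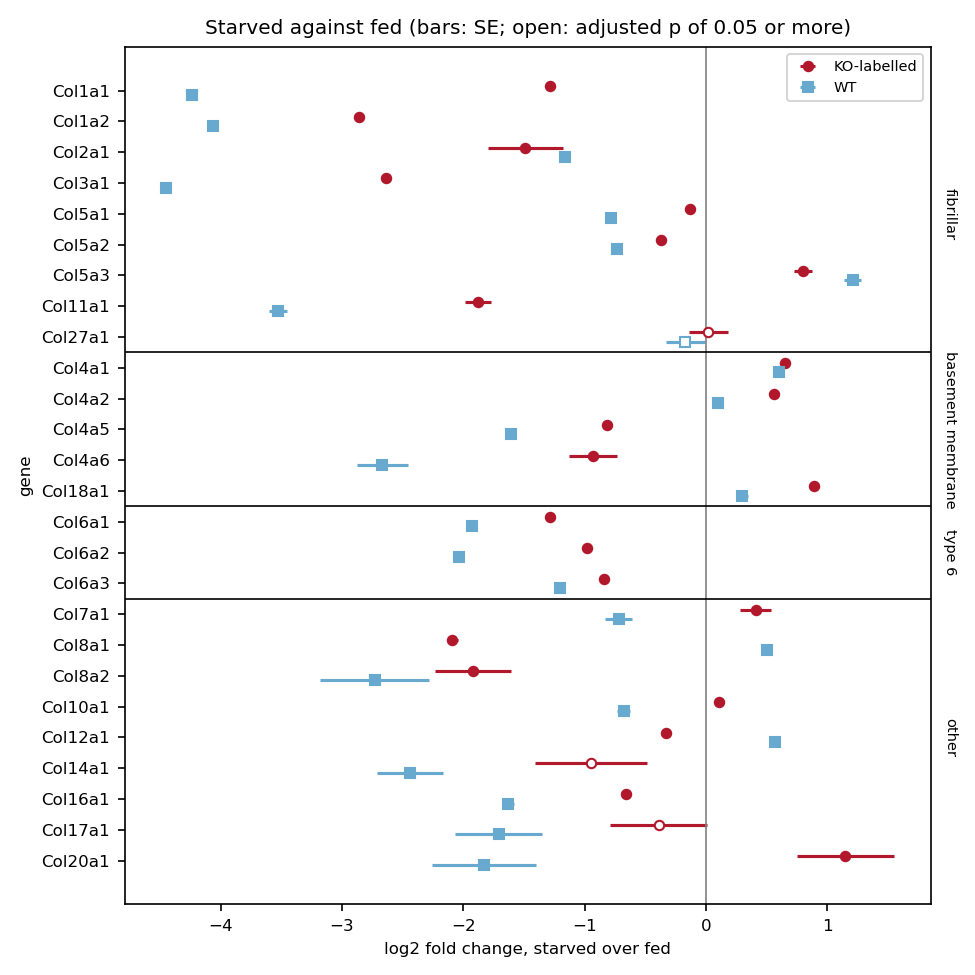
Log2 fold change of starved over fed cells (horizontal axis, bars SE) for the 26 collagens with a mean of at least 1 CPM, by class, in KO-labelled (circles) and WT cells (squares); open symbols did not pass an adjusted p of 0.05. Most fibrillar and type VI chains lie left of 0 and further left in WT cells, Col4a1 lies right of 0 in both, and Col8a1 lies on opposite sides.

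KO-labelled and WT cells were compared starved and fed, which asks what the label changes in each condition. Starved, 16 of the 35 tested collagens were higher and 12 lower in KO-labelled cells, where 41.9% of all genes were higher and 37.7% lower. Fed, 14 were higher and 19 lower, where 34.5% of all genes were higher and 39.8% lower. These comparisons use the same libraries as the starvation comparisons. The fibrillar chains split, with 4 higher and 5 lower starved and 2 higher and 9 lower fed. Of the 7 tested basement membrane chains 6 were higher and 0 lower starved, and 5 were higher and 2 lower fed. With library totals the median of all genes shifts by 0.32 starved and 0.11 fed.

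Among the tested collagens the largest difference was in Col2a1, the chain of type II collagen, the fibril protein of cartilage. It stood at 0.177 and 0.246 CPM in starved KO-labelled, 110 and 113 CPM in starved WT, 0.713 and 0.477 CPM in fed KO-labelled, and 253 and 244 CPM in fed WT libraries. It was 514-fold lower in KO-labelled cells when starved (log2 -9.01 ± 0.1) and 408-fold lower when fed (log2 -8.67 ± 0.081). Its counts in KO-labelled libraries ran from 8 to 44, so the folds are imprecise, and it fell with starvation by 1.49 ± 0.31 there and by 1.16 ± 0.043 in WT cells. Col1a2 was 10.1-fold lower in KO-labelled cells starved (log2 -3.34 ± 0.036) and 23.1-fold lower fed (log2 -4.53 ± 0.034). Col11a1 was lower too, with log2 fold changes of -2.23 ± 0.12 starved and -3.87 ± 0.071 fed.

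Col10a1 went the other way. It stood at 657 and 662 CPM in starved KO-labelled, 14.7 and 14.9 CPM in starved WT, 610 and 609 CPM in fed KO-labelled, and 22.6 and 24.8 CPM in fed WT libraries. In KO-labelled cells it was 44.5-fold higher starved (log2 5.48 ± 0.043) and 25.8-fold higher fed (log2 4.69 ± 0.039). With starvation its log2 fold change was 0.11 ± 0.03 in KO-labelled cells (adjusted p = 0.00181; -0.14 with library totals, and 0.02 with a minimum of 5 CPM, adjusted p = 0.496), and it fell by 0.68 ± 0.053 in WT cells. Exons of Col10a1 and Nt5dc1, on opposite strands, overlap by 18 bases. Nt5dc1 was at 6.42 to 13 CPM in KO-labelled and 3.99 to 13.2 CPM in WT libraries and was higher in KO-labelled cells starved (log2 0.77 ± 0.15, adjusted p = 8.05e-05), with a difference of 0.02 ± 0.12 fed (adjusted p = 0.906).

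Cartilage markers other than collagens were read at low levels beside these chains. The 7 listed genes summed to 14.5 and 14.7 CPM in starved KO-labelled, 7.22 and 8 CPM in starved WT, 13 and 13.7 CPM in fed KO-labelled, and 55.1 and 57.1 CPM in fed WT libraries, most of it Sox9, a transcription factor that drives Col2a1 in cartilage. Sox9 was at 14.1 and 14 CPM in starved KO-labelled, 6.72 and 7.03 CPM in starved WT, 11 and 11.4 CPM in fed KO-labelled and 55.3 and 52.7 CPM in fed WT libraries. Acan, the cartilage proteoglycan, reached no more than 0.606 CPM in any library, and Matn1, Hapln1 and Lect1 were at 0 in some. Col9a1, a chain of the type IX collagen that coats type II fibrils, had 0 counts in all 8 libraries, below 0.0921 CPM by the limit that a count of 0 allows. The part of other cell types in these differences was not tested.

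Several abundant chains were on different sides of WT in the 2 conditions. Col1a1 was higher in KO-labelled cells starved (log2 1.49 ± 0.029) and lower fed (-1.46 ± 0.028). Col5a1 was higher starved (0.5 ± 0.033) and lower fed (-0.14 ± 0.033, a call that ends with library totals at -0.03). Col18a1 was likewise higher starved (0.25 ± 0.042) and lower fed (-0.34 ± 0.043). Col8a1 was lower starved (-1.25 ± 0.045) and higher fed (1.34 ± 0.042), and Col12a1 was lower starved (-0.39 ± 0.038, a call that ends with library totals at -0.07) and higher fed (0.5 ± 0.038). Col3a1 was higher in both conditions, by 2.36 ± 0.041 starved and 0.55 ± 0.031 fed, and so were Col5a2 (1.83 ± 0.03 and 1.48 ± 0.03), Col4a1 (1.02 ± 0.034 and 0.98 ± 0.034), Col4a2 (1.26 ± 0.035 and 0.8 ± 0.035), Col4a5 (1.47 ± 0.046 and 0.68 ± 0.04) and Col16a1 (1.42 ± 0.051 and 0.44 ± 0.043). Col4a6, the partner of Col4a5, was lower fed (-1.27 ± 0.17). Starved, Col4a6 was not called (0.48 ± 0.25, adjusted p = 0.084), but passes with library totals at 0.8. The type VI chains Col6a1, Col6a2 and Col6a3 were lower fed (log2 -0.99 ± 0.029, -0.99 ± 0.033 and -0.62 ± 0.035). Starved they differed by -0.35 ± 0.03, 0.07 ± 0.036 (adjusted p = 0.0853) and -0.26 ± 0.037, values that become -0.04, 0.39 and 0.05 with library totals.

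**Figure D4:**
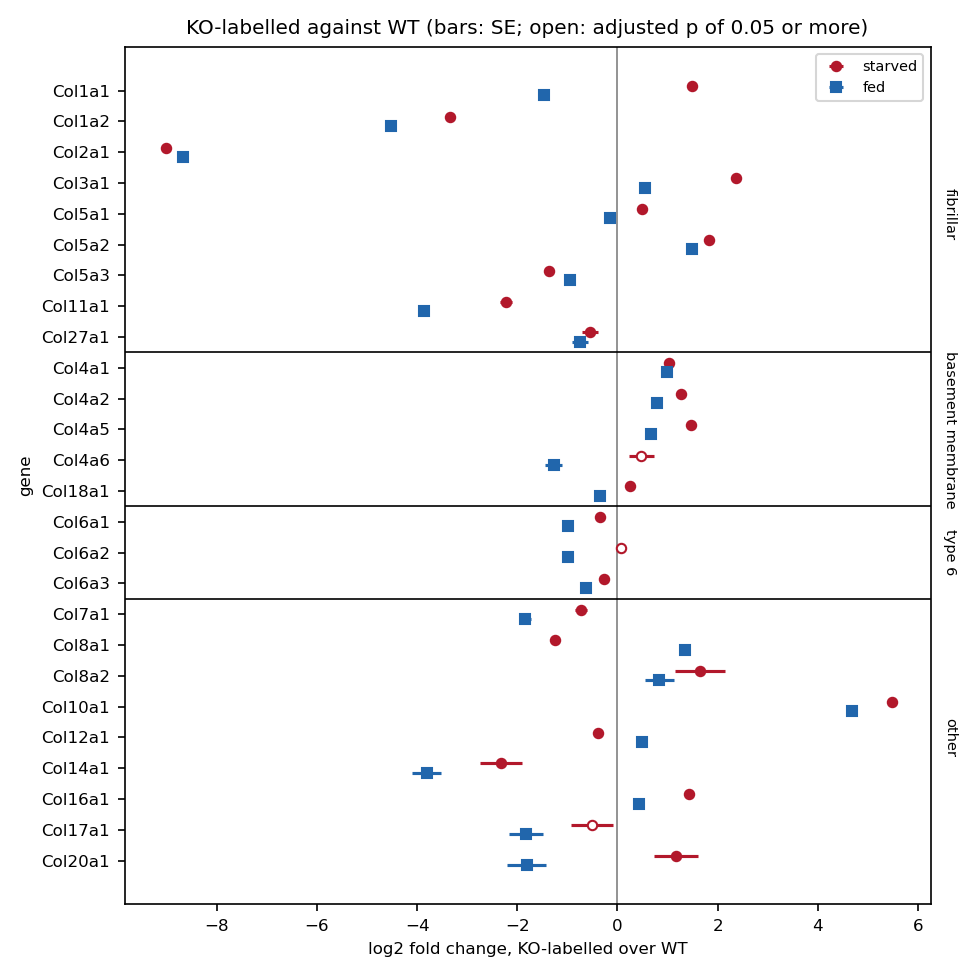
Log2 fold change of KO-labelled over WT cells (horizontal axis, bars SE) for the 26 collagens with a mean of at least 1 CPM, starved (circles) and fed (squares); open symbols did not pass an adjusted p of 0.05. Col2a1 lies near -9 and Col10a1 near 5 in both conditions, and Col1a1 and Col8a1 change sides.

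The last comparison asked whether starvation acted differently in the genotypes. The difference of the responses, KO-labelled minus WT, passed for 25 of the 35 tested collagens, 21 higher and 4 lower, where 34.1% of all genes were higher and 30.4% lower. Its median was 0.79 over the collagens and 0.1 over all genes, which shifts by 0.19 with library totals. Positive values mean a smaller fall or a larger rise in KO-labelled cells, or a rise there against a fall in WT cells. The difference was 2.94 ± 0.04 for Col1a1, 1.81 ± 0.052 for Col3a1, 1.64 ± 0.15 for Col11a1, 1.19 ± 0.046 for Col1a2 and 1.06 ± 0.049 for Col6a2. It was -2.59 ± 0.061 for Col8a1 and -0.89 ± 0.053 for Col12a1. For Col4a1 it was 0.04 ± 0.048 (adjusted p = 0.455), although without starved WT replicate 1 it passes at -0.14 and with library totals at 0.24.

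Chains that assemble in one molecule were also compared as ratios. The ratio of Col1a1 to Col1a2 counts was 19.3 and 18.9 in starved KO-labelled, 0.681 and 0.669 in starved WT, 6.4 and 6.44 in fed KO-labelled, and 0.766 and 0.76 in fed WT libraries. It was far higher in KO-labelled cells in both conditions. In WT cells it averaged 0.675 ± 0.0089 starved and 0.763 ± 0.0049 fed. For Col5a1 to Col5a2 it was 0.448 and 0.447 in starved KO-labelled, 1.11 and 1.14 in starved WT, 0.38 and 0.378 in fed KO-labelled, and 1.16 and 1.17 in fed WT libraries. The ratio of Col4a1 to Col4a2 stayed between 1.62 and 2.34 in all libraries, highest in starved WT cells (2.26 and 2.34), and that of Col6a1 to Col6a2 between 1.59 and 2.17. Col6a3 to Col6a1 was 0.706 ± 0.032 in starved KO-labelled and 0.662 ± 0.014 in starved WT, against 0.514 ± 0.0071 in fed KO-labelled and 0.399 ± 0.0019 in fed WT libraries. The ratio of Col4a5 to Col4a6 was 64.4 ± 1.7 in starved KO-labelled, 32.8 ± 4.2 in starved WT libraries, 60.4 ± 6.8 in fed KO-labelled and 15.6 ± 2.6 in fed WT libraries (SD, n = 2 each). Col11a1 to Col11a2 was 8.08 ± 0.24 in starved KO-labelled, 23.4 ± 0.7 in starved WT libraries, 34.4 ± 7 in fed KO-labelled and 51.9 ± 16 in fed WT libraries. Outside fed WT cells Col11a2 had only 11 to 14 counts in a library, so those ratios are less precise than their SD shows. Col8a1 to Col8a2 was 73.9 ± 23 in starved KO-labelled, 628 ± 363 in starved WT libraries, 79.1 ± 7.5 in fed KO-labelled and 55.8 ± 2.8 in fed WT libraries, and Col8a2 was under 1 CPM in the starved libraries, so its ratios there are imprecise. Ratios within a library need no scaling between libraries, but counts are not divided by length, so a ratio of 1 is not equal transcript number.

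**Figure D5:**
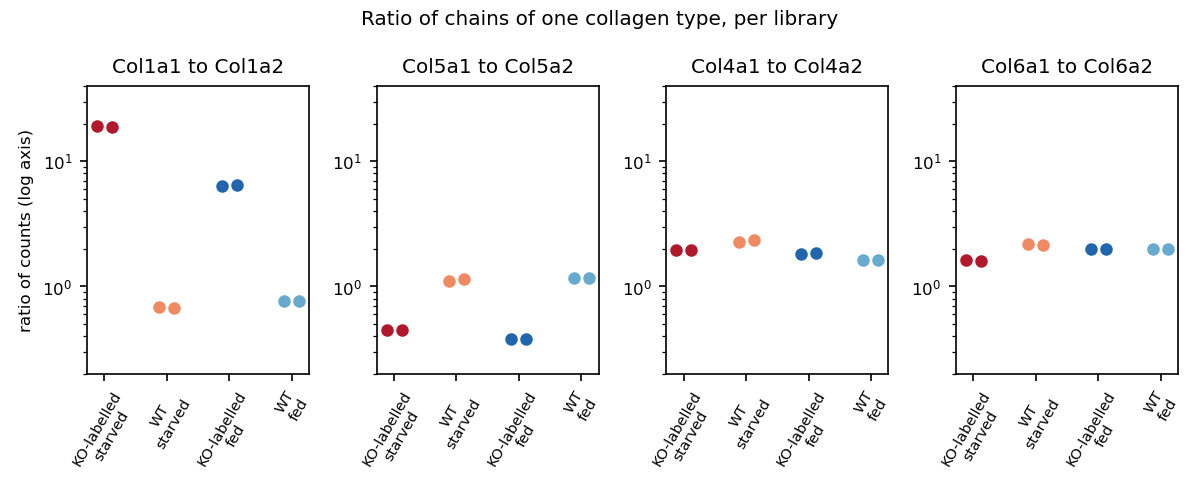
Ratio of the counts of partner chains (vertical axis, log scale) in the 2 libraries of each group. Col1a1 to Col1a2 lies above 6 in KO-labelled and below 1 in WT libraries, while Col4a1 to Col4a2 and Col6a1 to Col6a2 stay near 2.

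The less abundant chains gave less certain calls. Col11a2, a minor fibrillar chain, stood at 0.266 and 0.227 CPM in starved KO-labelled, 0.368 and 0.424 CPM in starved WT, 0.178 and 0.258 CPM in fed KO-labelled, and 1.74 and 2.56 CPM in fed WT libraries, and fell by 2.43 ± 0.42 in WT cells. Its response differed between the genotypes by 2.61 ± 0.71 (adjusted p = 0.00286). Col20a1, a fibril-associated chain, stood at 1.26 and 1.21 CPM in starved KO-labelled, 0.307 and 0.787 CPM in starved WT, 0.713 and 0.378 CPM in fed KO-labelled, and 1.55 and 2.37 CPM in fed WT libraries. It fell by 1.83 ± 0.43 in WT cells, and the rise of 1.15 ± 0.4 in KO-labelled cells did not pass without fed KO-labelled replicate 2 (0.79, adjusted p = 0.131). Col6a4, a type VI chain, stood at 0.598 and 0.68 CPM in starved KO-labelled, 0.215 and 0.182 CPM in starved WT, 1.12 and 1.25 CPM in fed KO-labelled, and 0.232 and 0.574 CPM in fed WT libraries. Its value of -0.88 ± 0.4 in KO-labelled starvation (adjusted p = 0.0485) lost the call with DESeq2 (-0.92, adjusted p = 0.115), with summed rows (adjusted p = 0.0794) and without any 1 of the 4 KO-labelled libraries (-0.96 without fed replicate 1, -0.8 without fed replicate 2, -0.79 without starved replicate 1 and -0.98 without starved replicate 2).

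Col19a1, a fibril-associated chain, had 36 and 16 counts in starved WT libraries, 1.11 and 0.485 CPM, against 0 counts in fed WT libraries. That is at least 11.2-fold higher, with 3 counts per library as the floor of the fed group. In KO-labelled libraries it had 2 and 0 counts starved and 2 and 0 counts fed. Col28a1, a chain of peripheral nerve, had 6 counts in starved and 151 in fed WT libraries, a ratio of 19.4 times lower (95% Clopper-Pearson interval 8.72 to 53.8, counting error only). Col24a1, a fibrillar chain of bone, had 2 counts in starved and 46 in fed KO-labelled libraries, 20.1 times lower (interval 5.26 to 171). Col4a3 had 77 counts in starved KO-labelled and 2 in starved WT libraries, 25.8 times higher (interval 6.89 to 216). The 9 chains that did not pass the filter, Col6a5, Col6a6, Col9a1, Col9a2, Col13a1, Col15a1, Col22a1, Col25a1 and Col26a1, had at most 13 counts in a library.

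Of the genes that fold, modify, secrete and cross-link collagen, 33 of the 37 in the table were tested. In KO-labelled starvation 12 rose and 18 fell, and in WT starvation 10 rose and 20 fell (median log2 fold change -0.17 and -0.48). Over all genes 39.4% rose and 40.3% fell in KO-labelled and 36.7% rose and 44.8% fell in WT starvation. P4hb, the disulfide isomerase subunit of prolyl 4-hydroxylase, stood at 2613 and 2582 CPM in starved KO-labelled, 1398 and 1419 CPM in starved WT, 1297 and 1303 CPM in fed KO-labelled, and 1035 and 1041 CPM in fed WT libraries. It rose by 1 ± 0.022 in KO-labelled and by 0.44 ± 0.023 in WT cells, where library totals give -0.02 (adjusted p = 0.527). Serpinh1, the collagen chaperone HSP47, stood at 1967 and 1916 CPM in starved KO-labelled, 894 and 900 CPM in starved WT, 1333 and 1304 CPM in fed KO-labelled, and 982 and 943 CPM in fed WT libraries, a rise of 0.56 in KO-labelled cells and a difference of -0.1 in WT cells (adjusted p = 0.00138; -0.04, adjusted p = 0.207, with DESeq2 and -0.56 with library totals).

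Of the proteins that act outside the cell, Lox, Pcolce and Loxl2 fell in both genotypes. Lox, the lysyl oxidase that cross-links fibrils, stood at 630 and 636 CPM in starved KO-labelled, 397 and 415 CPM in starved WT, 868 and 867 CPM in fed KO-labelled, and 1100 and 1071 CPM in fed WT libraries (-0.45 and -1.42 in KO-labelled and WT starvation). Pcolce, an enhancer of procollagen cleavage, fell by 0.24 and 0.81 on the log2 scale. Loxl2, a related oxidase, stood at 2.37 and 4.86 CPM in starved KO-labelled, 57.4 and 60.2 CPM in starved WT, 8.2 and 10.4 CPM in fed KO-labelled, and 199 and 212 CPM in fed WT libraries (-1.32 and -1.81 in KO-labelled and WT starvation). KO-labelled over WT cells, its log2 fold change was -3.99 starved and -4.48 fed. Inside the cell, P4ha3, a catalytic subunit of prolyl 4-hydroxylase, was also lower in KO-labelled cells (-2.93 starved and -3.17 fed). The more abundant catalytic subunits P4ha1 and P4ha2 were not lower. P4ha2 was higher (1.75 starved and 0.52 fed), and P4ha1 differed by 0.02 starved (adjusted p = 0.556) and 0.76 fed. Tll1, a procollagen C-proteinase, rose by 0.77 in KO-labelled cells, where it was at 0.398 to 0.794 CPM and the call ends with library totals (0.52, adjusted p = 0.106), and by 3.06 in WT cells. Adamts3, a procollagen N-proteinase, had 0 CPM in the 4 KO-labelled libraries and no more than 0.394 CPM in WT libraries.

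Of the 8 tested receptors for collagen 4 rose and 3 fell in KO-labelled starvation (all genes 39.4% and 40.3%), and 3 rose and 5 fell in WT starvation (all genes 36.7% and 44.8%). Ddr2, the fibrillar collagen receptor kinase, rose in both (0.97 and 0.84), to 475 and 478 CPM in starved KO-labelled cells and 270 and 287 CPM in starved WT cells, against 236 and 250 CPM in fed KO-labelled and 155 and 156 CPM in fed WT cells. Mrc2, the uptake receptor for collagen, fell in both (-1.36 and -0.84). Itga11, an integrin subunit for fibrillar collagen, stood at 4.21 and 3.76 CPM in starved KO-labelled, 13 and 13.6 CPM in starved WT, 3.19 and 2.62 CPM in fed KO-labelled, and 78.3 and 81.4 CPM in fed WT libraries. With starvation Itga11 fell by 2.58 on the log2 scale in WT cells and rose by 0.44 in KO-labelled cells (adjusted p = 0.00251). The KO-labelled call ended with library totals (0.18, adjusted p = 0.17). Itgb1, the shared beta subunit, rose by 0.64 in KO-labelled and 0.33 in WT cells, the WT value turning to -0.12 with library totals.

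Among 29 tested TGF-beta pathway and collagen regulator genes, 10 rose and 17 fell in KO-labelled starvation (all genes 39.4% and 40.3%) and 11 rose and 14 fell in WT starvation, where the shares are close to those of all genes (36.7% and 44.8%). Tgfb3, a ligand that induces collagen genes, stood at 6.36 and 5.76 CPM in starved KO-labelled, 4.79 and 3.57 CPM in starved WT, 49.7 and 48.9 CPM in fed KO-labelled, and 121 and 119 CPM in fed WT libraries, a fall of 3.03 in KO-labelled and 4.84 in WT cells on the log2 scale. Tgfb2 fell by 3.54 and 1.29. Ctgf, a TGF-beta and YAP target that promotes matrix production, stood at 172 and 170 CPM in starved KO-labelled, 620 and 634 CPM in starved WT, 84.1 and 85.7 CPM in fed KO-labelled, and 59.6 and 59.9 CPM in fed WT libraries. It rose by 1.01 in KO-labelled and 3.39 in WT cells.

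Over the 8 libraries, the genes outside the collagens whose log2(CPM + 1) was most like that of Col1a1, out of 9241 tested genes with a mean of at least 10 CPM, were Rab32 (Pearson r = 0.9998), Bloc1s5 (0.9985), Pla2g15 (0.9973), Lrsam1 (0.9972), Zfp36l1 (0.9969), Serpinb9 (0.9963), Slc35a4 (0.9952) and Rbm4 (0.9949). Among the collagens, Col4a6 (0.959), Col6a2 (0.948), Col5a1 (0.939) and Col3a1 (0.904) were closest, and Col1a2, its partner, was at 0.631. The points are 4 groups of 2 libraries that share their scaling, so these values describe likeness over 4 groups and need not mean the same order. Col3a1 was highest in fed KO-labelled libraries (914 and 904 CPM), whereas Col1a1 was highest in fed WT libraries.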

How the data were processed

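Raw read counts, whole numbers for each RefSeq transcript, were deposited by the authors in a table of 31055 rows for 23366 symbols. TopHat2 2.0.9, bedtools and the build mm9 are named without roles in the submitters' processing notes; strand use, multiply matched reads and filters were not given in the sources used here, and reads of overlapping genes cannot be told apart. Another 4 value columns had names of no labelled sample and stayed unused. Groups and replicate numbers came from the sample titles. The row with the largest total stood for a symbol, since rows of a symbol repeat reads. Between replicates the chi-square over its degrees of freedom was 3.31 to 6.01, more than sampling noise gives.

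Tests used edgeR 4.0.16 under R 4.3.3 (TMM scaling, filterByExpr with 14418 genes kept, 1 coefficient per group over 8 libraries, 4 residual degrees of freedom, quasi-likelihood F test, two-sided, Benjamini-Hochberg adjustment over all genes, threshold 0.05). The common biological coefficient of variation was 0.0341. The SE was derived from the test, as the size of the log2 fold change divided by the root of F. CPM are counts over TMM-scaled library totals, and a floor of 3 counts corresponded to 0.0486 to 0.0921 CPM. Counting error alone is covered by intervals and floors. The procedure was run on simulated data in which 200 genes changed, up and down in equal number. Far fewer genes changed there than were called here, so that run does not test the scaling. Alternatives were DESeq2 1.42.0, other scalings and filters, summed rows, a replicate block, fits of the compared groups alone and leaving out each library.

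The genes and lists were chosen with earlier results of these data known. Described with all libraries were the 4 most abundant chains of each class and the 5 largest called interactions, and Col2a1, Col3a1 and Col11a1 were added after their values were seen. Fold changes are given for chains with a mean of at least 1 CPM and for 3 below it that those rules name, Col6a4, Col11a2 and Col19a1. Count ratios of Col4a3, Col24a1 and Col28a1, also below it, were chosen after their values were seen. In each further list the 4 most abundant and the 4 most changed members could be named, and P4ha1 and P4ha2 were added beside P4ha3. Promoter sequences came from a set drawn from RefSeq (GRCm38.p6) and served for letters only, since the counts rest on another build. That set holds 35 of the 44 genes and lacks, among others, Col1a1, Col2a1, Col5a2 and Col12a1.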

Additional observations from a re-analysis of the deposited data

Results flagged for a closer look

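The response to starvation differed between KO-labelled and WT cells, by the test of the difference itself, for 24 of the collagen genes named here (log2, KO-labelled minus WT). In the same test 34.1% of all 14418 genes were called higher and 30.4% lower, so a call by itself does not set the collagens apart. Among the fibrillar chains the difference was 2.94 for Col1a1, 1.19 for Col1a2, 1.81 for Col3a1, 0.64 for Col5a1, 0.36 for Col5a2, -0.41 for Col5a3 (-0.21, adjusted p = 0.0793, with library totals), 1.64 for Col11a1 and 2.61 for Col11a2. Basement membrane chains gave 0.45 for Col4a2, 0.79 for Col4a5, 1.75 for Col4a6 and 0.59 for Col18a1. Type VI chains gave 0.64 for Col6a1, 1.06 for Col6a2 and 0.36 for Col6a3. The other chains gave 1.13 for Col7a1, -2.59 for Col8a1, 0.79 for Col10a1, -0.89 for Col12a1, 1.49 for Col14a1, 0.98 for Col16a1, 1.33 for Col17a1 and 2.98 for Col20a1.

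For Col19a1 the fitted difference was -7.99, which depends on the prior count because a group had 0 counts, and the call ended without fed WT replicate 1 (-8, adjusted p = 0.0673), fed WT replicate 2 (-8, adjusted p = 0.0657), fed KO-labelled replicate 1 (-5.09) or starved KO-labelled replicate 2 (-6.94). The calls of Col14a1 and Col17a1 ended under several alternatives: Col14a1 without fed WT replicate 1 (1.35), starved WT replicate 1 (1.26), fed KO-labelled replicate 1 (1.48) or 2 (1.49) and starved KO-labelled replicate 2 (1.25), and Col17a1 with DESeq2 (1.24, adjusted p = 0.0792), RLE factors (1.23, adjusted p = 0.054) and summed rows (1.32, adjusted p = 0.0632) and without fed WT replicate 2 (0.82), starved WT replicate 2 (0.99), fed KO-labelled replicate 2 (1.1) and starved KO-labelled replicate 1 (1.29) or 2 (1.37).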

How the results depend on the processing

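Of 2256 values of named chains under the alternatives, 2196 kept direction and call, 46 lost the call, 9 gained it and 5 turned, 4 of these with library totals: Col4a2 (-0.35) and Col18a1 (-0.16) in WT starvation, Col10a1 (-0.14) in KO-labelled starvation and Col6a3 (0.05) in starved KO-labelled against WT cells. The other was the interaction of Col4a1 without starved WT replicate 1 (-0.14), whose values without 1 library ran from -0.14 to 0.08. With library totals risers numbered 4 in WT and 5 in KO-labelled starvation. A minimum of 5 CPM, which tests fewer chains (22), left 5 risers in KO-labelled starvation and 10 higher starved and 9 higher fed in KO-labelled cells. Without 1 library, counts ran from 6 to 7 higher and 22 to 23 lower in WT starvation, 6 to 8 and 17 to 19 in KO-labelled starvation, 14 to 16 and 11 to 13 for KO-labelled against WT starved, 11 to 14 and 19 to 19 fed, and 19 to 21 and 3 to 5 for the interaction.

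Summing the rows of a symbol repeats reads and moved the shares by its construction. In the order starved KO-labelled, starved WT, fed KO-labelled and fed WT, fibrillar shares became 0.215, 0.103, 0.458 and 1.02%, basement membrane 0.114, 0.0465, 0.106 and 0.0618%, type VI 0.0393, 0.0376, 0.0948 and 0.16%, and other chains 0.0878, 0.0452, 0.126 and 0.0498%. The ratio of Col4a5 to Col4a6 became 128, 65.4, 120 and 31.1 (64.4, 32.8, 60.4 and 15.6 with 1 row per gene), and that of Col6a3 to Col6a1 1.38, 1.29, 0.993 and 0.773.

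Same-numbered replicates did not deviate together (correlations -0.0443 to 0.0309), so the numbers do not pair the libraries. With the replicate block Col6a4 in KO-labelled starvation (-0.9, adjusted p = 0.0654) and the interaction of Col17a1 (1.31, adjusted p = 0.0566) lost their calls. Chains under 1 CPM rest on few counts, which limits what can be said of them.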
